A study of Mus musculus with 18 samples.

Results

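The cathepsins are the proteases of the lysosome. Of the 25124 genes counted in each fat depot, 10 were taken as this group from a list of symbols: Ctsa, Ctsb, Ctsc, Ctsd, Ctsf, Ctsh, Ctsk, Ctsl, Ctss and Ctsz. The list was drawn up with earlier results of these data known, and it leaves out 13 further cathepsin genes, among them Ctso. Poly(A) RNA came from 3 fat depots of male mice on the C57BL/6J background: the subcutaneous inguinal white fat (iWAT), the visceral epididymal white fat (eWAT) and brown fat (BAT). Wildtype (WT) mice and mice with a whole-body knockout of caspase-6 (C6KO), bred from heterozygous parents, all ate a 60% high fat diet (HFD) for 12 weeks, begun at 10 to 14 weeks of age. Each genotype and depot had 3 libraries, 18 in all, and there was no group on chow, so every value below comes from HFD-fed mice. The labels do not say which libraries of different depots came from the same mouse.

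Cathepsins are made as inactive precursors, sorted to the lysosome by the mannose 6-phosphate receptors, and activated there by cleavage, often by legumain or by another cathepsin. Ctsd encodes an aspartic protease, Ctsa a serine carboxypeptidase that also stabilises other lysosomal enzymes, and the remaining members are cysteine proteases related to papain. Most are made in nearly every cell to degrade protein, whereas Ctss, Ctsk, Ctsc and Ctsh are known for high levels in particular cells: Ctss and Ctsh in antigen-presenting cells, Ctsk in osteoclasts and in macrophages of fat, and Ctsc in leukocytes, where it activates the serine proteases of granules.

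The libraries of iWAT held 16506034 to 19043523 counts, those of eWAT 16717201 to 19139694 and those of BAT 7803108 to 12428683, and all 10 cathepsins passed the filter on low counts in every depot. Casp6 itself was lower in each C6KO library than in every WT library of its depot, with a log2 fold change of -1.51 in iWAT (edgeR adjusted p = 0.0751), -1.85 in eWAT (0.0132, called) and -1.5 in BAT (0.0671). The summed level of the brown adipocyte markers that passed the filter (6 listed) was 5625 to 12625 CPM (counts scaled to the library total) in the BAT libraries against at most 73.2 CPM in the white fat, and 10 adipocyte markers summed to at least 12577 CPM in every library. These markers tell BAT from white fat but not iWAT from eWAT. All 4 mesothelial markers, of the lining of visceral organs, passed the filter in eWAT and none did in iWAT or BAT. The libraries iWAT C6KO-3 and BAT WT-2 stood apart from their groups. Summed CPM of 19 macrophage markers was 2468 in iWAT C6KO-3 against 792 and 833 in the other C6KO libraries of iWAT, and 4 skeletal muscle markers summed to 23605 CPM in BAT WT-2 against 106 to 4978 CPM in the other BAT libraries. Results that rest on these libraries are given with and without them.

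The genes lie on several chromosomes of mm10, and Ctsk and Ctss are neighbours: Ctsk at chr3:95499210-95509387 ends 17.4 kb before Ctss at chr3:95526786-95556405, and both lie on the chromosome of Casp6, 34.39 and 34.35 Mb from it. The 250 bases before the transcript start are shown for this pair, whose estimates in iWAT and BAT were the furthest below WT, for Ctsf and Ctsz, whose estimates in BAT were above WT, and for Ctsd, the cathepsin with the highest level. They were read from RefSeq for GRCm38.p6, which held such a window for 8 of the 10 genes, at chr3:95526536-95526785 (Ctss), chr3:95498960-95499209 (Ctsk), chr19:4854915-4855164 (Ctsf), chr2:174439040-174439289 (Ctsz) and chr7:142387828-142388077 (Ctsd). Ctsz and Ctsd lie on the minus strand and the others on the plus strand, and each sequence reads 5′ to 3′ toward its gene. Capitals mark CACGTG, the E-box core that the lysosomal factors of the TFEB family bind, and 2 copies of GAAA with 2 bases between them, a repeat of the kind bound by interferon regulatory factors, on either strand.
Ctss: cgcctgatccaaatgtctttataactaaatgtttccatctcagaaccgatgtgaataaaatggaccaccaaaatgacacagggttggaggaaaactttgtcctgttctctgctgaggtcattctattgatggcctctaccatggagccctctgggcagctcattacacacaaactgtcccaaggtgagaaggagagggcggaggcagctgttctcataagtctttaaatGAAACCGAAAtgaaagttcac
Ctsk: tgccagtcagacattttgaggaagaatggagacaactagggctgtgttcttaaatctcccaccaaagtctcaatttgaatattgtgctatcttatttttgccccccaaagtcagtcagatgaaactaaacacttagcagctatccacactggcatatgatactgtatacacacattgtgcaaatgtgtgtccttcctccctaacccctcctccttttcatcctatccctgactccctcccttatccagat
Ctsf: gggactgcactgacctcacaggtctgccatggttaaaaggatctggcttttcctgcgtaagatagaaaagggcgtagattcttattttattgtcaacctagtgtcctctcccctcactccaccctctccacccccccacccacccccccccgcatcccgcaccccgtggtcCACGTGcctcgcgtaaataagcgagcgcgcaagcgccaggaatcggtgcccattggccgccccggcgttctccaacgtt
Ctsz: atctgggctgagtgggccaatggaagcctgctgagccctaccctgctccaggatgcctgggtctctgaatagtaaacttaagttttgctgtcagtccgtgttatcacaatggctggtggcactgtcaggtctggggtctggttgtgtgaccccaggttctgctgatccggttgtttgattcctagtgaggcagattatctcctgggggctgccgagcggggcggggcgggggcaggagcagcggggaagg
Ctsd: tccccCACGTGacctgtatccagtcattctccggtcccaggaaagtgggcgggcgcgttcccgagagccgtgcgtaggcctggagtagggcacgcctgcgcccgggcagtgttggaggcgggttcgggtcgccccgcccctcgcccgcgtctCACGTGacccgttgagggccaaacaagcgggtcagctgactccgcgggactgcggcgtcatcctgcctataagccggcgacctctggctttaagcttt
The window of Ctsd held CACGTG at 2 places, those of Ctsf and Ctsl held it at 1, and it was present in 6.02% of the 32851 promoter windows of this length. Among the 8 windows, that of Ctss alone held the GAAA repeat, which begins 21 bases before its start and was present in 2.98% of all windows. GAGGAAGT, the core bound by the myeloid factor PU.1, was found only in the window of Ctsc and in 2.44% of all windows. Ctsk and Ctsz held none of these letters. A match here is a description of letters and not of binding.

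In WT fat the cathepsins were far from equal. Levels were compared per length as RPKM (CPM from a scaling of all 18 libraries together, divided by transcript length in kilobases). Ctsd and then Ctsb had the highest mean level in every depot and Ctsc the lowest. In iWAT of WT mice the mean RPKM was 1868 ± 156 for Ctsd, 888 ± 25.9 for Ctsb, 306 ± 47.1 for Ctsl, 251 ± 6.30 for Ctss, 250.2 ± 10.6 for Ctsz, 183 ± 12.2 for Ctsa, 101 ± 15.0 for Ctsk, 43.6 ± 1.05 for Ctsf, 41.4 ± 4.11 for Ctsh and 11.8 ± 0.913 for Ctsc (SD, n = 3). In that order the ranges of Ctsl, Ctss and Ctsz overlapped with their neighbours, as did those of Ctsf and Ctsh, and the other neighbours were apart. In eWAT Ctss was the third, at 872 ± 138 RPKM, apart from Ctsb above it and Ctsz below it. In BAT the third was Ctsz, at 293 ± 120.2 RPKM, whose range overlapped that of Ctsb. The 10 genes together took 0.995% to 1.12% of all counts in WT iWAT, 1.69% to 2.05% in WT eWAT and 0.399% to 0.494% in WT BAT, and Ctsb and Ctsd supplied 67.5% to 76.3% of the cathepsin counts in these 9 libraries.

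**Figure D1:**
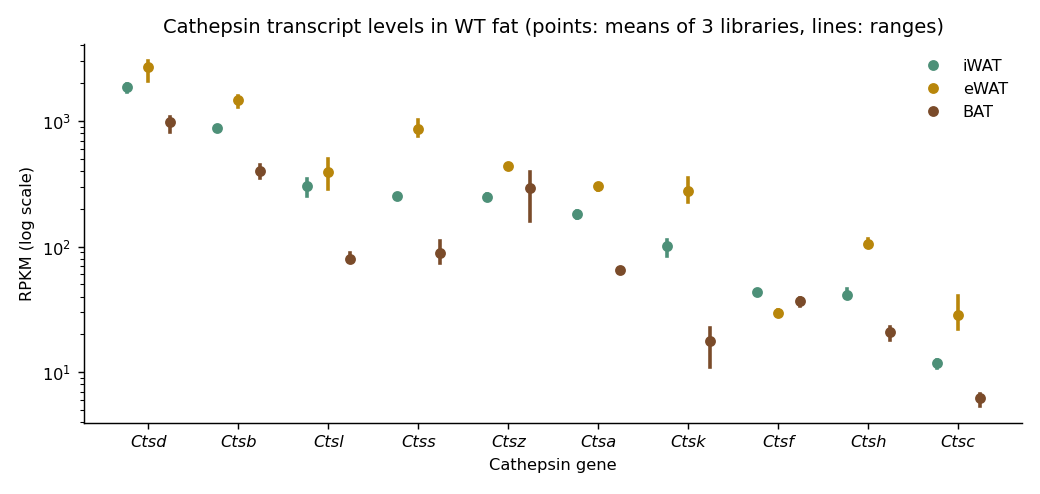
Transcript level of each cathepsin in WT iWAT, eWAT and BAT, in RPKM on a log scale, with points for means of 3 libraries and lines from the lowest to the highest library. Ctsd and Ctsb lead in every depot, the BAT points lie below both white depots except for Ctsf and Ctsz, and Ctsk spans the widest range between depots.

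Cathepsin transcripts in WT mice were most abundant in eWAT and least in BAT. In one fit of all 18 libraries, 7 of the 10 were called higher in eWAT than in iWAT (adjusted p under 0.05 and a fold change of at least 1.5), where 12.8% of 15866 genes were called higher. Leaving out 1 library gave 5 to 8 calls, with 5 without iWAT WT-2. Ctss, the protease that trims the invariant chain of MHC class II, was 3.47-fold higher in eWAT (log2 difference 1.79, SE 0.416, edgeR adjusted p = 0.0042), and Ctsk, a collagen-degrading protease, was 2.75-fold higher (adjusted p = 0.0114, and 0.0507 without iWAT WT-2). Ctsz passed at an adjusted p of 0.0158 and missed the threshold without iWAT WT-1 (0.0508) or iWAT WT-2 (0.0524). Ctsf went the other way, at a log2 difference of -0.55 (SE 0.108, adjusted p = 0.00103), short of the 1.5-fold minimum. In bulk tissue, fewer cells of a type and less RNA per cell cannot be told apart, here and in every comparison below.

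BAT held 8 of the 10 at called lower levels than iWAT, against 18.7% of all genes, and the same count of 8 against eWAT, where 23.6% of all genes were called lower. The gap between BAT and eWAT was 15.78-fold for Ctsk and 9.82-fold for Ctss (log2 differences -3.98, SE 0.445, and -3.30, SE 0.442, with edgeR adjusted p = 2.22e-06 and 1.36e-05). Ctsf and Ctsz were not called in either comparison with BAT. Ctsz differed by 0.23 between BAT and iWAT (SE 0.235, adjusted p = 0.447) and by -0.57 between BAT and eWAT (SE 0.235, adjusted p = 0.047, under 1.5-fold). These 3 comparisons share their WT libraries. The 19 macrophage markers followed the same order, with summed levels of 13870 to 15579 CPM in WT eWAT, 3499 to 3937 CPM in WT iWAT and 1149 to 1407 CPM in WT BAT, and their part in the cathepsin levels was not tested.

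C6KO was compared with WT among HFD-fed mice. The paper reports that HFD-fed C6KO mice weighed less than WT, with less fat mass and smaller adipocytes. Loss of caspase-6 and lower adiposity therefore cannot be told apart in this comparison. In BAT, Ctss fell 4.81-fold and Ctsh fell 2.06-fold in C6KO mice, and no cathepsin was called higher. These 2 of 10 stand against 1.07% of 13595 genes called lower and 0.169% called higher in BAT. Ctss measured 132, 104 and 91.3 CPM in the WT libraries and 24.5, 15.9 and 27.6 CPM in the C6KO libraries. Every C6KO library lay far below every WT library, and the log2 fold change was -2.27 (SE 0.238, edgeR adjusted p = 0.00432). Ctsh, an aminopeptidase of lysosomes, measured 30.4, 34.7 and 26.1 CPM in WT and 14.4, 13.2 and 16.7 CPM in C6KO. The groups were again apart, with a log2 fold change of -1.04 (SE 0.184, edgeR adjusted p = 0.0318). Ctsk measured 31.1, 29.3 and 15.7 CPM in WT and 5.32, 7.37 and 10.8 CPM in C6KO, a level of only 45 to 111 counts per C6KO library. Its groups did not overlap, and its log2 fold change of -1.69 (SE 0.333) missed the threshold at an edgeR adjusted p of 0.0534. Ctsc, which activates granule proteases, measured 44.6, 45.6 and 36.7 CPM in WT and 29.4, 16.2 and 25.0 CPM in C6KO, with a log2 fold change of -0.85 (SE 0.227, adjusted p = 0.128). Over all 10 genes the median log2 fold change in BAT was -0.27. C6KO libraries lay below every WT library for 6 genes, as for 12.1% of all genes, and above for Ctsf and Ctsz, as for 8.07% of all genes.

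DESeq2 called 4 cathepsins lower in BAT, namely Ctsc, Ctsh, Ctsk and Ctss, where it called 2.62% of 14833 genes lower. Ctss was called in BAT under each of the 13 alternatives tried, with adjusted p between 3.47e-16 and 0.0352. Ctsh was not called when any 1 library was left out, and without BAT WT-2, the library with high muscle markers, its log2 fold change was -0.93 (edgeR adjusted p = 0.0526) and that of Ctss was -2.30 (adjusted p = 0.00344).

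**Figure D2:**
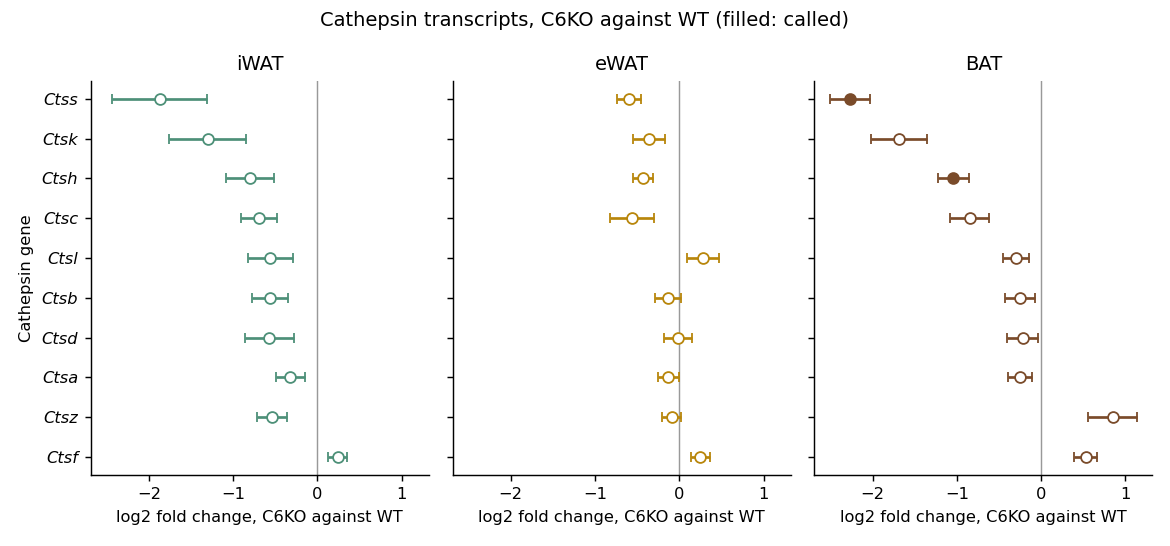
Log2 fold change of each cathepsin in C6KO against WT fat, by depot, with bars of 1 standard error from edgeR and filled points for genes called. Only Ctss (-2.27) and Ctsh (-1.04) in BAT are filled, Ctss has the lowest point in all 3 depots, and Ctsf lies right of 0 in each.

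In iWAT no cathepsin passed the test, although 9 of the 10 estimates were below 0 and their median was -0.56, against 0.027 over all 14533 genes tested. The test called 0.0275% of all genes in iWAT in either direction. At an unadjusted p under 0.05 and a fold change of at least 1.5, 4 cathepsins were lower, as were 6.72% of all genes, and DESeq2 called Ctsc alone, where it called 3.53% of 14292 genes lower. Ctss measured 329.7, 344.0 and 335.0 CPM in WT and 44.3, 48.1 and 185.0 CPM in C6KO. The groups did not overlap, but C6KO-3 stood well above the other C6KO libraries, and the log2 fold change of -1.87 had an SE of 0.562 (edgeR adjusted p = 0.204). Ctsk measured 166, 131 and 176 CPM in WT and 28.3, 53.8 and 109.6 CPM in C6KO, with C6KO-3 again the highest of its group (log2 fold change -1.30, SE 0.456, adjusted p = 0.242). Ctsh measured 62.1, 62.2 and 73.7 CPM in WT and 24.0, 34.1 and 56.0 CPM in C6KO (log2 fold change -0.80, SE 0.282, adjusted p = 0.236). C6KO-3 was the highest C6KO library for each of these 3 genes, and also had the highest macrophage markers of its group. C6KO lay below every WT library for 6 genes (Ctsb, Ctsc, Ctsh, Ctsk, Ctss and Ctsz), as for 12.2% of all genes, and above for Ctsf, as for 10.9%.

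Without iWAT C6KO-3, 7 of the 10 cathepsins were called lower (Ctsb, Ctsc, Ctsd, Ctsh, Ctsk, Ctss and Ctsz) and their median over all 10 was -0.93, while 6.43% of 14798 genes were called lower. In that fit the log2 fold change was -2.89 for Ctss (SE 0.138, edgeR adjusted p = 7.94e-05), -1.96 for Ctsk (SE 0.285, adjusted p = 0.00701) and -1.20 for Ctsh (SE 0.177, adjusted p = 0.00447). The 2 cathepsins with the most counts were included, Ctsb at -0.84 (SE 0.153, adjusted p = 0.0119) and Ctsd at -1.0 (SE 0.185, adjusted p = 0.0123). The cathepsins took 0.593% and 0.495% of all counts in C6KO-1 and C6KO-2, and 0.985% in C6KO-3, next to 0.995% to 1.12% in WT. The count of calls in iWAT thus turned on this library.

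The smallest estimates were those in eWAT, where no cathepsin passed the test and the median log2 fold change was -0.13, while 0.746% of 14889 genes were called in either direction. Ctss was nearest to the threshold, at 1216, 1540 and 1136 CPM in WT and 844, 905 and 825 CPM in C6KO. Its groups were apart, and the log2 fold change was -0.60 (SE 0.141, edgeR adjusted p = 0.0687). Ctsh measured 176, 205 and 180.1 CPM in WT and 119, 142 and 156 CPM in C6KO, also apart, with a log2 fold change of -0.43 (SE 0.124, adjusted p = 0.114). C6KO lay below WT for these 2 genes, as for 11.2% of all genes, and above WT for none of the 10, against 12% of all genes. Ctss was the only cathepsin lower at an unadjusted p under 0.05 with a fold change of at least 1.5, as were 2.79% of all genes, and the only one that DESeq2 called, where it called 1.22% of 15479 genes lower. Ctsk, at -0.36 (SE 0.194, adjusted p = 0.394), and Ctsc, at -0.56 (SE 0.264, adjusted p = 0.335), overlapped between the groups. Without eWAT WT-2, its highest eWAT library, Ctsc was estimated at -0.23 (edgeR adjusted p = 0.74).

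**Figure D3:**
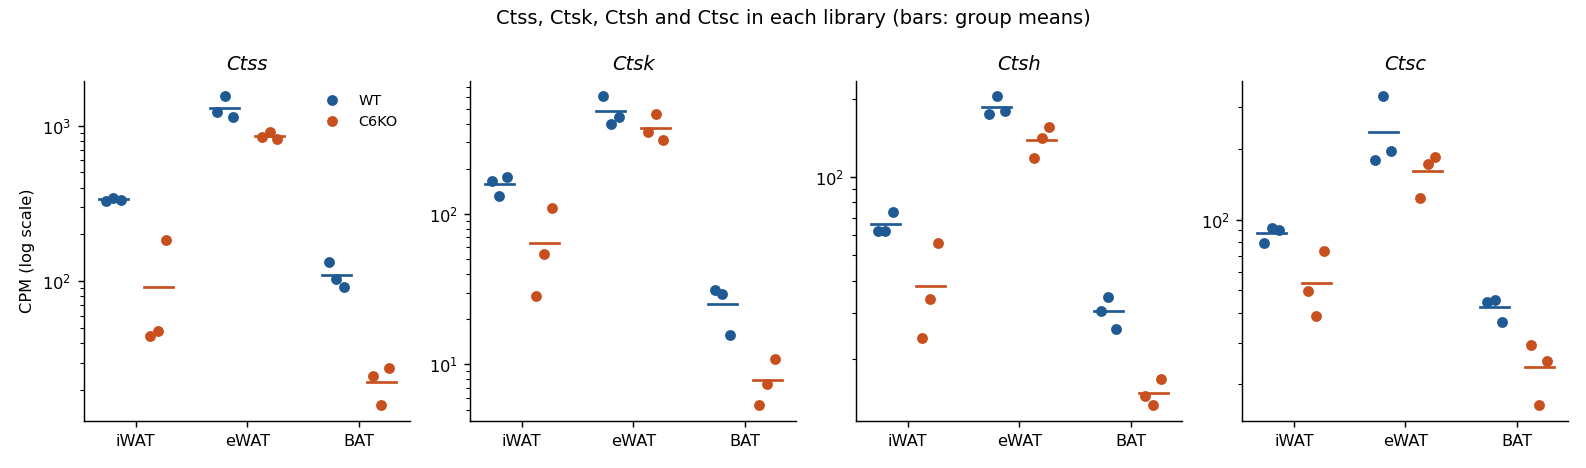
CPM of Ctss, Ctsk, Ctsh and Ctsc in each of the 18 libraries on log scales, with WT in blue, C6KO in orange and bars at group means of 3 libraries. For Ctss and Ctsh the C6KO points lie below all WT points in every depot, and 1 C6KO library of iWAT, C6KO-3, lies above the other C6KO libraries of iWAT in all 4 panels.

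Ctsb, Ctsd, Ctsl and Ctsa, which most cells make, had estimates between -0.57 and 0.28. Ctsb, an abundant endopeptidase, averaged 4161 ± 132 CPM in WT and 2825 ± 822 CPM in C6KO of iWAT, 7650 ± 732 and 6973 ± 704 CPM in eWAT, and 1727 ± 159 and 1450 ± 177 CPM in BAT. Its log2 fold changes were -0.56, -0.13 and -0.25 (SE 0.213, 0.152 and 0.181). Ctsd, the aspartic protease, had log2 fold changes of -0.57 in iWAT (SE 0.290), -0.01 in eWAT (SE 0.166) and -0.22 in BAT (SE 0.187), with overlapping groups in each depot. Ctsl, an endopeptidase active in most tissues, was estimated at -0.56 in iWAT (SE 0.266), 0.28 in eWAT (SE 0.189) and -0.30 in BAT (SE 0.158). Ctsa was estimated at -0.32, -0.13 and -0.25 (SE 0.176, 0.123 and 0.145). With all libraries, none of these 4 genes was called in any depot, and the lowest of their edgeR adjusted p values was 0.25, for Ctsb in iWAT.

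Ctsf and Ctsz set themselves apart from the other members in BAT, where their C6KO libraries lay above every WT library. Ctsf, a papain-type cysteine protease with a long propeptide, measured 66.6, 61.2 and 67.3 CPM in WT BAT and 96.3, 88.0 and 98.0 CPM in C6KO BAT. The groups were well apart, but the log2 fold change of 0.53 (SE 0.137) did not pass the test (edgeR adjusted p = 0.114). It was also estimated above 0 in iWAT, at 0.24 (SE 0.109, adjusted p = 0.312), and in eWAT, at 0.25 (SE 0.111, adjusted p = 0.274). Ctsz, a carboxypeptidase also called cathepsin X, measured 502, 218 and 417 CPM in WT BAT and 777, 667 and 611 CPM in C6KO BAT. Its lowest library was BAT WT-2, the one with high muscle markers, and the log2 fold change of 0.85 (SE 0.289, adjusted p = 0.232) was 0.58 without that library (adjusted p = 0.193). In iWAT the same gene lay the other way, with 348, 343 and 373 CPM in WT and 219, 204 and 311 CPM in C6KO (log2 fold change -0.54, SE 0.174, adjusted p = 0.202). In eWAT its groups overlapped (log2 fold change -0.09, SE 0.112, adjusted p = 0.738).

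**Figure D4:**
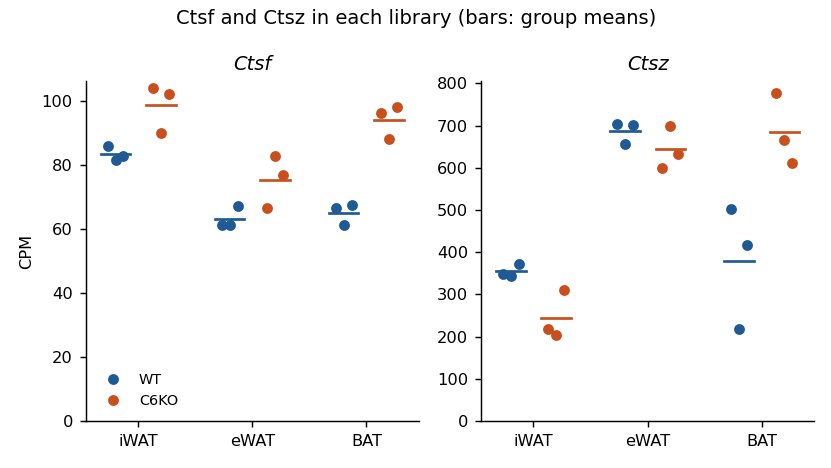
CPM of Ctsf and Ctsz in each of the 18 libraries, with WT in blue, C6KO in orange and bars at group means of 3 libraries, on axes from 0. Both genes have all C6KO points above all WT points in BAT, and Ctsz has all C6KO points below WT in iWAT.

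Whether the effect of the knockout differed between depots was tested directly in the fit of all libraries, and no cathepsin passed at an adjusted p under 0.05 for any of the 3 pairs of depots, in which 0.536% (eWAT against BAT), 0.183% (iWAT against BAT) and 0% (iWAT against eWAT) of 15866 genes passed. The counts at an unadjusted p under 0.05 were 3 for eWAT against BAT (Ctsk, Ctss and Ctsz), 1 for iWAT against BAT (Ctsz) and 2 for iWAT against eWAT (Ctsl and Ctss), beside 11.2%, 9.93% and 5.48% of all genes. Ctsz had the lowest p: its log2 fold change was lower in iWAT than in BAT by 1.37 on the log2 scale (difference -1.37, SE 0.334, edgeR adjusted p = 0.131), and neither depot's own fold change was called. For Ctss the difference between eWAT and BAT was 1.68 (SE 0.583, adjusted p = 0.256) and that between iWAT and BAT was 0.41 (SE 0.580, adjusted p = 0.878). Without iWAT C6KO-3 the differences of Ctsz in iWAT against BAT (-1.59, adjusted p = 0.034) and of Ctss in iWAT against eWAT (-2.28, adjusted p = 0.000411) passed in edgeR. That call of Ctss thus turned on this library, whereas for Ctsz DESeq2 called the difference with all libraries kept (adjusted p = 0.00893).

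Among the genes that act with cathepsins, Lgmn, the legumain that cleaves several of them into mature forms, fell in BAT. Lgmn measured 128, 101 and 100.2 CPM in WT BAT and 61.7, 55.8 and 62.9 CPM in C6KO BAT, without overlap (log2 fold change -0.87, SE 0.156, edgeR adjusted p = 0.034). It was called without BAT WT-2 too (adjusted p = 0.0323), but not when any other library was left out. With all libraries of each depot kept, Lgmn was the only 1 of the 6 partner genes that edgeR called, beside 1.07% of all genes called lower in BAT. The others were Neu1, Glb1, Psap, Grn and Cd74. DESeq2 called Lgmn and Cd74 lower in BAT, where it called 2.62% of all genes lower. It called 3 partners lower in iWAT, namely Cd74, Grn and Psap (adjusted p = 0.00529, 0.0197 and 0.0368), beside 3.53% of all genes. In iWAT Lgmn was estimated at -1.25 (SE 0.426, adjusted p = 0.236), with 97.2, 63.0 and 213.0 CPM in C6KO, where C6KO-3 was again the highest, and at -1.90 without that library (adjusted p = 0.00116). Cd74, the invariant chain that Ctss trims, was estimated at -0.95 (iWAT), -0.98 (eWAT) and -0.62 (BAT) (SE 0.251, 0.418 and 0.189), and none of these passed in edgeR (adjusted p = 0.166, 0.295 and 0.175), while DESeq2 called it in iWAT and BAT (adjusted p = 0.00529 and 0.0353). In eWAT, Cd74 measured 1865, 5352 and 2338 CPM in WT and 1258, 1614 and 1971 CPM in C6KO. Without eWAT WT-2, the highest of these, its estimate there was -0.38 (edgeR adjusted p = 0.55). Glb1, which Ctsa stabilises, was estimated at -0.75 in BAT (SE 0.188, adjusted p = 0.106).

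With all libraries of each depot kept, the inhibitors and the sorting machinery gave no call in any depot with edgeR. DESeq2 called 1 of them, the protease inhibitor Serpinb6a, lower in BAT (adjusted p = 0.0203, against 0.145 in edgeR), beside 2.62% of all genes. Of 14 inhibitor genes, 8 (iWAT), 9 (eWAT) and 7 (BAT) were tested. Cst3, the secreted cystatin C, stayed within 0.08 of 0 in every depot (SE 0.146 to 0.239), and Cstb, the cytosolic stefin B, at -0.60, -0.11 and -0.22 (SE 0.231, 0.199 and 0.209). The 13 genes of mannose 6-phosphate and sortilin transport were all tested and their median log2 fold change was between -0.05 and 0.02 over the depots. The TFEB family of lysosomal factors (Tfeb, Tfe3, Mitf and Tfec) had medians between -0.39 and -0.21. None was called by either tool with all libraries of each depot kept. Among 13 further cathepsin genes, 9 of the placental and related kinds were at 0 in every library, and Ctso, the one tested in all depots, was estimated at -0.70 in BAT (SE 0.176, edgeR adjusted p = 0.107) and was called lower there by DESeq2 (adjusted p = 0.0386). Of the granule proteases, which Ctsc can activate, Cma1 and Tpsab1 of mast cells fell in eWAT. Their log2 fold changes were -1.16 and -1.87 (SE 0.206 and 0.342, edgeR adjusted p = 0.049 and 0.0468). These were 2 of 9 tested, where edgeR called 0.746% of 14889 genes in either direction, and leaving out any 1 library gave at most 1 call. DESeq2 called 4 of the list lower in eWAT, beside 1.22% of all genes. In eWAT 5 mast cell markers summed to 236 to 346 CPM in WT and 115 to 169 CPM in C6KO. That list holds Cma1 itself and 2 further genes of the granule protease list, Mcpt4 and Tpsb2, so it restates part of these values, and the part of mast cells in them was not tested. In iWAT 4 of the 6 granule proteases tested were estimated lower and 2 higher. DESeq2 called Elane higher there (adjusted p = 0.0138), while edgeR did not (log2 fold change 3.06, SE 0.713, adjusted p = 0.154). Its mean level was low, at 0.174 CPM in WT and 1.5 CPM in C6KO.

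Macrophage markers moved with the cathepsins that were lower. All 19 were estimated lower in iWAT and 18 of them in each other depot. In BAT edgeR called 10 lower, among them Adgre1, Cd68, Lyz2 and Trem2, beside 1.07% of 13595 genes. The summed level of all 19 was 1149 to 1407 CPM in WT and 377 to 591 CPM in C6KO of BAT. It was 3499 to 3937 and 792 to 2468 CPM in iWAT, and 13870 to 15579 and 10574 to 11670 CPM in eWAT. The groups did not overlap in any depot, no macrophage marker was at 0, and the list does not hold a cathepsin. Markers of fibroblasts and progenitors, 8 genes, were also estimated lower throughout. Their sums were 5820 to 5992 CPM in WT and 2120 to 3985 CPM in C6KO of iWAT, 8516 to 10979 and 6757 to 8280 CPM in eWAT, and 1253 to 2014 and 702 to 864 CPM in BAT. Of these 8, edgeR called 2 lower in BAT, Col3a1 and Lum, beside 1.07% of all genes, and none in iWAT or eWAT. DESeq2 called 4 lower in iWAT (beside 3.53% of all genes) and 4 in BAT (beside 2.62%). Adipocyte markers lay the other way in white fat: the 10 genes summed to 32140 to 35247 CPM in WT and 42521 to 50680 CPM in C6KO of iWAT, and to 12577 to 14606 and 17613 to 22426 CPM in eWAT, where Plin1 and Lipe were called higher. In iWAT edgeR called none of the 10, and in eWAT it called 0.746% of 14889 genes in either direction. In BAT the sums of the adipocyte markers overlapped, at 18544 to 26020 and 21310 to 25129 CPM. Lep was called lower there, beside 1.07% of all genes. DESeq2 called 2 (iWAT), 7 (eWAT) and 3 (BAT) of the 10 higher, and 1 lower in BAT. The share of all genes that DESeq2 called higher was not tallied. The 4 endothelial markers gave no edgeR call, and their sums were 507 to 582 CPM in WT and 693 to 854 CPM in C6KO of eWAT, without overlap, 680.1 to 825 and 949 to 970.5 CPM in BAT, also apart, and overlapped in iWAT. DESeq2 called 1 endothelial marker higher in eWAT and 1 in BAT. Of 9 lymphocyte markers, all were tested in iWAT and eWAT and 3 in BAT. EdgeR called none, and DESeq2 called 1 lower in eWAT (beside 1.22% of all genes) and 2 in BAT (beside 2.62%). The sums of the markers tested overlapped in each depot. The part of these cell types in the cathepsin values was not tested.

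**Figure D5:**
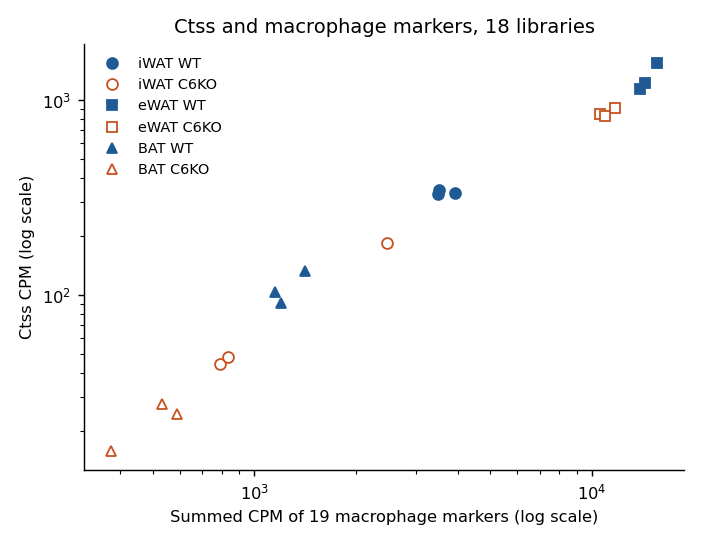
Ctss in CPM against the summed CPM of 19 macrophage markers in each of the 18 libraries, both on log scales, with circles for iWAT, squares for eWAT, triangles for BAT, filled blue for WT and open orange for C6KO. The 3 depots lie along 1 rising band, with C6KO points below and to the left of the WT points of the same depot, and iWAT C6KO-3 (2468 and 185.0 CPM) between the other iWAT C6KO libraries and WT.

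The genes most like each member were ranked by correlation. Over the 18 libraries, after the mean of each depot was subtracted from log2 CPM, the gene most like Ctss among 8762 was Cd84, a receptor of leukocytes (Pearson's r = 0.991), followed by the leukocyte tetraspanin Cd53 (r = 0.987) and Sh3bgrl3 (r = 0.983). Ctsh was most like Slfn2 (r = 0.977) and Cd52 (r = 0.966), Ctsk most like Rab7b (r = 0.944), Cd53 (r = 0.937) and the macrophage lipid receptor Trem2 (r = 0.933), and Ctsc had r = 0.925 with the complement gene C1qa. Ctsb was most like Slc35f6 (r = 0.955) and the lysosomal glucuronidase Gusb (r = 0.942), and Ctsd most like Ctsb (r = 0.94) and the lysosomal enzyme Pld3 (r = 0.919). Ctsl was most like Tmem189 (r = 0.863) and Ctsd (r = 0.855), and Ctsa most like Ucp2 (r = 0.906), Gusb (r = 0.901) and Lgmn (r = 0.901).

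Ctsf and Ctsz had other nearest genes. Ctsf was most like Tcn2, the vitamin B12 carrier (r = 0.889), the autophagy gene Wipi2 (r = 0.858) and Decr2, an enzyme of fatty acid oxidation (r = 0.854). Ctsz was most like Acot8, a peroxisomal thioesterase (r = 0.929), Plin3, a lipid droplet protein (r = 0.859), and Elovl6, a fatty acid elongase (r = 0.856). Between members, Ctss and Ctsh had r = 0.954 and Ctss and Ctsk r = 0.916, whereas Ctsf had r = -0.7 with Ctss and r = -0.721 with Ctsh. These correlations describe 18 libraries that share genotype and depth differences, and carry no test. They depend on the centring: without it 6 of the 30 highest ranked genes, 3 for each member, kept such a rank, and r fell to 0.395 for Ctsz with Elovl6, 0.458 for Ctsf with Decr2 and 0.495 for Ctsz with Acot8. Within eWAT alone, over 6 libraries, Ctsk and Cd53 had r = 0.296.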

How the data were processed

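RNA-seq was analysed in 18 libraries of mouse iWAT, eWAT and BAT, 3 WT and 3 C6KO per depot. The authors aligned poly(A) reads to mm10 with STAR, counted reads on exons with HOMER, 1 transcript standing for each gene, and deposited 1 table of raw counts per depot; versions, annotation and strandedness are not given in the sources used here. The depot of a table came from its name and its columns were matched to the sample titles. All 10 cathepsins kept the same transcript in the 3 tables (2619 other genes did not). Without strand, reads of Ctsa cannot be told apart from those of the overlapping Neurl2 and Pltp, of Ctsb from Fdft1, or of Ctsz from Nelfcd, and Gm49369 overlaps Ctsd on the same strand. The noncoding genes Gm26522 and Gm47123 overlap Ctsc and Ctsl on the opposite strand. On the same strand the noncoding Gm44751 overlaps Ctsc and the pseudogene Hmgb1-ps5 overlaps Ctss.

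Each depot was tested with edgeR 4.0.16 (R 4.3.3; filterByExpr, TMM, robust quasi-likelihood) over all genes, with calls at an adjusted p (Benjamini-Hochberg) under 0.05 and a fold change of at least 1.5. The F statistic gave the standard errors. Differences between depots came from 1 fit of all 18 libraries (15866 genes), which also gave RPKM. CPM was scaled within each depot. The code was tested on simulated data. The alternatives were DESeq2 1.42.0, other scalings, filters and thresholds, a replicate block, and leaving out each library. The labels call the libraries biological replicates without naming mice, so p-values measure the spread between these libraries, and none was a duplicate of another within counting noise.

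The members and lists were chosen with earlier results of these data known. All 10 members, Casp6, listed partners that were called, Lgmn, Cst3, Cstb and Cd74 are named. For each member, so are up to 3 genes with the highest correlation among those with a mean of at least 10 CPM in every depot. Glb1, Grn, Psap, Serpinb6a, Ctso, Elane and the GAAA repeat were chosen after their values or sequence were seen. Figures were drawn with matplotlib 3.10.9.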

Additional observations from a re-analysis of the deposited data

Results flagged for a closer look

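Ctsz, the gene of cathepsin X, had estimates in opposite directions in 2 depots, neither of them called in its own depot, and the test of the difference itself passed in DESeq2 but not in edgeR. The adjusted p was 0.202 in iWAT (DESeq2 0.0579) and 0.232 in BAT (DESeq2 0.0509). The log2 fold change of C6KO against WT was lower in iWAT than in BAT, with a difference of -1.37 (SE 0.334, unadjusted p = 0.000742 in edgeR's fit of 18 libraries). Its adjusted p was 0.131 in edgeR and between 0.00893 (DESeq2) and 0.281 over the alternatives, and it was 0.034 without iWAT C6KO-3 (difference -1.59). In iWAT the 3 C6KO libraries were all below WT, and in BAT the 3 C6KO libraries were all above WT. BAT WT-2, with the highest skeletal muscle markers, was the lowest library of Ctsz in BAT, at 218 CPM, and the part of muscle in this value was not tested.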

How the results depend on the processing

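Of the counts and medians above and Casp6, 194 values under alternatives kept their side of the threshold or, for counts, stayed within 1.5 times and, for medians, within 1 SD between replicates, 46 counts and medians moved by more, 9 values of Casp6 came to pass the threshold and 3 no longer passed, and of the values for single genes 22 changed sign, most of them within 0.1 of 0. A further 33 values for single genes came to pass the threshold under an alternative, and 32 no longer passed. The cathepsins called lower in iWAT numbered 1 with DESeq2, 1 with all 18 libraries in one fit and 4 at an unadjusted p under 0.05 with a fold change of at least 1.5, and 0 to 7 when libraries were left out one at a time. In eWAT they numbered 1 with DESeq2, 1 with no filter on low counts and 1 at an unadjusted p, and in BAT 4 with DESeq2 and 5 at an unadjusted p (1 of them higher), with 1 to 2 when libraries were left out. The median in iWAT ranged from -0.93 to -0.41 when libraries were left out, the lowest without C6KO-3. The cause of these moves was not tested, beyond fewer libraries in the fits that left one out.

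The partner lists together gave 0 calls in iWAT, 2 in eWAT and 1 in BAT. They gave 4, 4 and 4 with DESeq2, 2, 0 and 3 with all 18 libraries in one fit, and 7, 5 and 8 at an unadjusted p with the fold minimum. In eWAT they gave 4 with no filter and 0 with total counts only. Leaving out 1 library gave 0 to 10 (iWAT, 10 without C6KO-3), 0 to 1 (eWAT) and 0 to 1 (BAT).

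The difference of the knockout effect between depots was called for 1 cathepsin in iWAT against BAT with DESeq2 (Ctsz, -1.36, adjusted p = 0.00893). At an unadjusted p it held for 3 in eWAT against BAT, 1 in iWAT against BAT and 2 in iWAT against eWAT. Leaving out 1 library gave 0 to 1 for iWAT against BAT and 0 to 1 for iWAT against eWAT, the 1 being Ctsz (-1.59, adjusted p = 0.034) and Ctss (-2.28, adjusted p = 0.000411), each without iWAT C6KO-3. The difference for Ctss in iWAT against BAT then ran from -0.59 to 0.75, and for Ctsk from -0.26 to 0.74. The level of Ctsz in WT BAT against iWAT ran from -0.06 to 0.52.

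For Casp6, whose direction never changed, the adjusted p fell under 0.05 in iWAT with DESeq2 (log2 fold change -1.52), with all 18 libraries in one fit (-1.51), with no filter (-1.51) and without C6KO-3, and in BAT with DESeq2 (-1.48), all libraries (-1.51), no filter (-1.47) and without WT-2. It rose over 0.05 in eWAT when any 1 WT library was left out. Leaving out 1 library moved it between -1.7 and -1.4 (iWAT), between -1.98 and -1.69 (eWAT) and between -1.77 and -1.22 (BAT). Estimates near 0 that changed sign when 1 library was left out were Cst3 in iWAT (-0.14 to 0.06), eWAT (-0.20 to 0.23) and BAT (-0.09 to 0.38), Cstb in eWAT (-0.37 to 0.02) and BAT (-0.40 to 0.03), and Ctsd in eWAT (-0.16 to 0.08), and Cst3 in eWAT with total counts only (-0.03).

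Replicate numbers from the labels did not pair the WT and C6KO libraries: deviations of same-numbered libraries correlated at a mean of 0.045 (iWAT), 0.072 (eWAT) and -0.291 (BAT). With the replicate number as a block, 1 cathepsin (Ctss) was called in BAT and 0 partner genes, Casp6 in iWAT was called at -1.52, and the estimates near 0 of Ctsd (0.00) and Cst3 (-0.03) in eWAT changed sign.

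With 3 libraries per group and a common biological coefficient of variation of 0.216 (iWAT), 0.191 (eWAT) and 0.32 (BAT), differences such as those of Ctsk in BAT lay near the limit of the test. BAT libraries were the shallowest, and Ctsk rested there on the fewest counts of the members that differed.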

Other observations

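When each cathepsin was expressed per 100 CPM of the summed macrophage markers of the same library, a ratio chosen after the values were seen, Ctss was the only one of the 10 with C6KO libraries below every WT library in all depots, as were 5 of 13132 genes tested in all depots (0.0381%). The divisor was itself lower in C6KO, and 6 of the 10 (Ctsa, Ctsb, Ctsd, Ctsf, Ctsl and Ctsz) had C6KO libraries above every WT library in all depots, as had 50.3% of these genes. In iWAT the 3 WT libraries had Ctss ratios of 9.42, 9.78 and 8.51, against 5.59, 5.77 and 7.50 for C6KO. The eWAT ratios ran 8.49, 9.89 and 8.19 for WT and 7.98, 7.75 and 7.58 for C6KO. The BAT ratios ran 9.38, 9.05 and 7.60 for WT, then 4.15, 4.22 and 5.17 for C6KO. Each depot gave an exact two-sided permutation p of 0.1 (n = 3 and 3), the smallest that this design allows, before any adjustment over 10 genes and 3 depots. Groups that do not overlap always give this p, so it restates how Ctss was picked out and adds no support. The ratio of Ctsk overlapped between the groups in every depot, for example 3.72 to 4.74 (WT) and 3.57 to 6.46 (C6KO) in iWAT. That of Ctsb, for example, lay higher for C6KO in each depot: 109 to 119 (WT) and 152 to 319 (C6KO) in iWAT, 43.8 to 57.3 and 59.1 to 66.6 in eWAT, 133 to 145 and 244 to 372 in BAT.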
